A study of Rattus norvegicus with 6 samples.

Results

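Periaxin, the dystroglycan complex and the periaxonal adhesion molecules of Schwann cells were followed here through 9 genes, Prx, Drp2, Dag1, Dmd, Utrn, Sgcb, Sgce, Mag and Cadm4, taken by symbol from the 29884 genes of a count table of rat sciatic nerve. All 9 were present in the table and all 9 passed the filter on low counts. The table holds 6 RNA sequencing libraries from wild type rats, all with a chronic constriction injury (CCI): loose ties placed on the nerve that damage its fibres and cause lasting neuropathic pain. In 3 libraries the injured nerve had been treated with PLLA-PCL-RVC, a piezoelectric polymer conduit with the local anaesthetic ropivacaine, and in the other 3 the injured nerve was untreated. Both groups carried the injury, and the labels give no age, sex or time after injury. No uninjured nerve and no conduit without drug were analysed here, so the levels cannot be set against normal nerve, and polymer, piezoelectric material and drug cannot be told apart.

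A myelinating Schwann cell has an inner, adaxonal membrane that faces the axon and an outer, abaxonal membrane that faces the basal lamina. On the outer side, dystroglycan binds laminin and is tied through dystrophin-family proteins to the cytoskeleton, and periaxin holds DRP2 and dystroglycan in the patches where the outer membrane is pressed against the myelin, leaving the cytoplasmic Cajal bands between them. On the inner side, the sialic acid-binding glycoprotein MAG and the immunoglobulin-like adhesion molecule CADM4 contact the axon surface along the internode.

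Library totals ran from 38401951 to 42225086 counts. The labels carry 5 batch numbers, 3 in the conduit group and 2 in the untreated group, and no batch holds both groups, so a difference shared by all batches of a group cannot be told apart from treatment. The libraries held the transcripts of nerve, with 6 summed compact myelin genes, among them Mbp and Pmp22, at 157531 to 205190 CPM in conduit libraries and 11008 to 26740 CPM in untreated libraries, where CPM is the count as a share of the TMM-scaled library total. Untreated replicate 1 stood apart by its 12 skeletal muscle markers, of which Acta1 and Ckm were the most abundant. They summed to 10.1 to 14.2 CPM in the conduit libraries, and to 12593, 90.8 and 10.6 CPM in untreated replicates 1, 2 and 3. Whether the libraries came from separate animals is not stated, so p-values measure the spread between libraries, which may be partly technical.

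All 9 genes were higher in conduit nerves than in untreated nerves, and 0 were lower. In the comparison across all 15464 genes tested (quasi-likelihood F test of edgeR, Benjamini-Hochberg adjusted p under 0.05), 24% of genes were called higher and 26.2% lower, 50.2% in all. The conduit and untreated libraries did not overlap for any of the 9, where 29.5% of all genes tested were higher and 32.2% lower without overlap. The log2 fold changes, conduit over untreated, ran from 1.24 for Dag1 to 3.73 for Prx, with a median of 1.73, beside a median of -0.04 over all genes tested. Scaling by library totals alone moved the median of all genes by -0.39 and the split of calls to 2291 higher and 6554 lower, against 3711 higher and 4049 lower with TMM. All 9 genes stayed higher under that scaling. The tissue was bulk nerve, so fewer cells of a type and less RNA per cell cannot be told apart in any of these values.

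**Figure D1:**
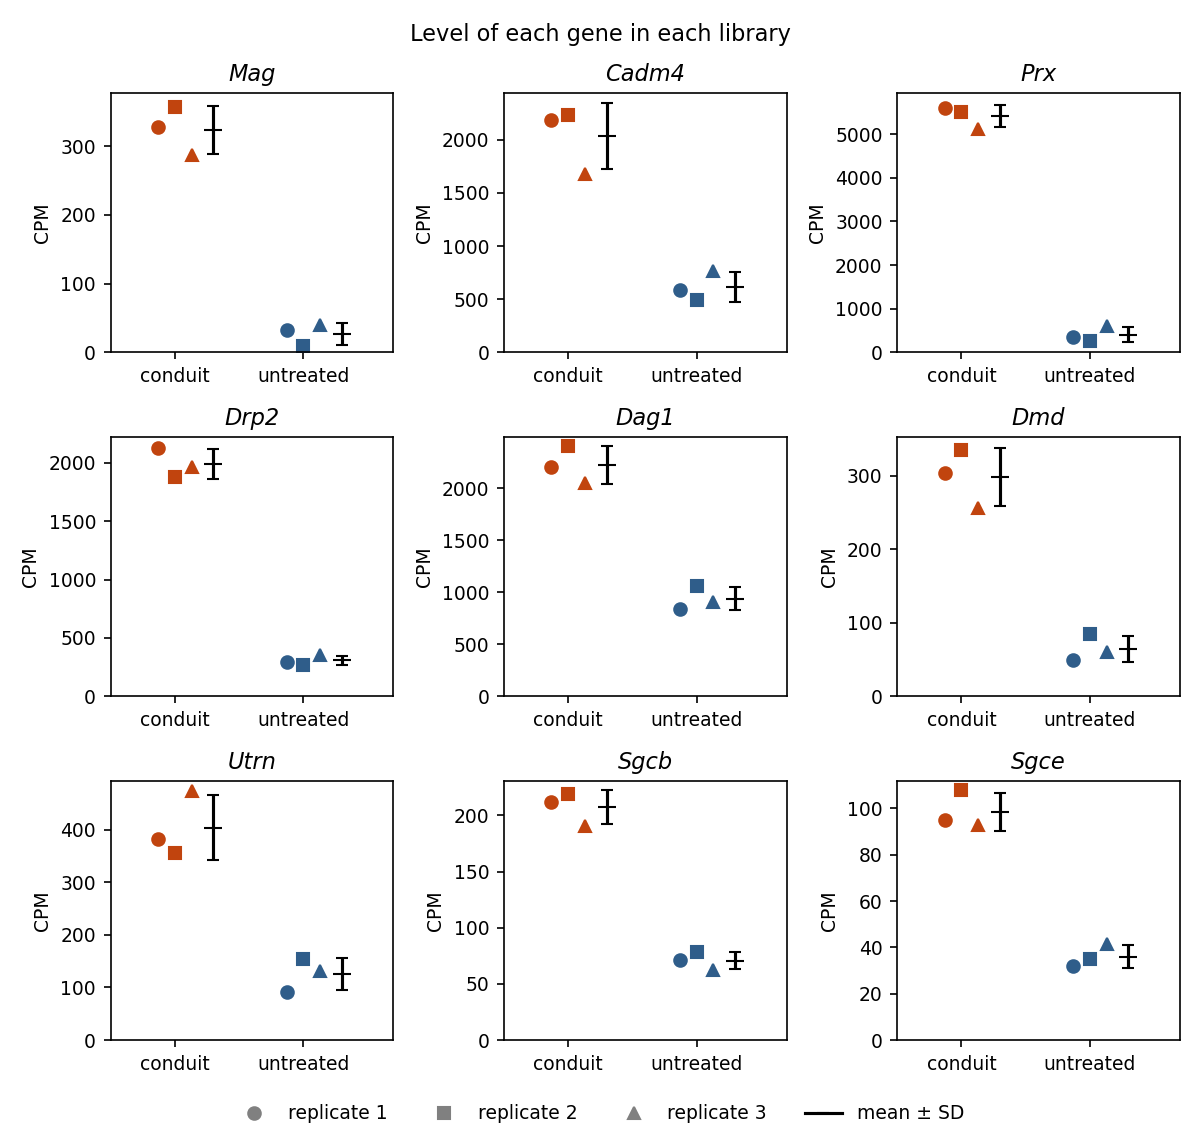
Level of each of the 9 genes in CPM after TMM scaling (y axis, from 0) in the 3 conduit and 3 untreated libraries. Symbols mark replicates and black bars the mean ± SD of 3 libraries; for every gene the lowest conduit library lies above the highest untreated library, and for Prx the conduit libraries sit at 5120.4 to 5598 CPM and the untreated libraries at 269 to 596 CPM.

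Prx encodes periaxin, the PDZ protein of myelinating Schwann cells that organises the outer membrane patches, and whose loss causes a demyelinating neuropathy in mice and people. Prx was at 5598, 5503 and 5120.4 CPM in conduit replicates 1, 2 and 3, and at 354, 269 and 596 CPM in untreated replicates 1, 2 and 3. The conduit libraries lay close together, with a coefficient of variation of 4.68%, while the untreated libraries spread over 2.22-fold, from the lowest in replicate 2 to the highest in replicate 3. The means were 5407 ± 253 CPM in conduit nerves and 406 ± 169.7 CPM in untreated nerves (SD, n = 3 each), and the log2 fold change was 3.73 ± 0.32 (SE, edgeR adjusted p = 0.000144). This was the largest rise of the 9, and 1.10% of all genes tested had a higher log2 fold change. Prx took up 0.472% of all counts in conduit libraries and 0.0462% in untreated libraries.

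The 300 bases around the transcription start (250 before and 50 after it) were taken from RefSeq on the GRCr8 assembly. They are shown for Prx and its partner Drp2 and for the axon-facing genes Mag and Cadm4. All 9 genes were higher in conduit nerves, so those shown are not a group set apart by their change. The table of start regions holds 8 of the 9 genes, all but Dag1. Capitals mark GTGGGNG, the core of the motif read by EGR factors such as EGR2, and ACAAAG, the core read by SOX factors such as SOX10, on either strand. Of the 33469 start regions of the same length in the table, 28.8% held GTGGGNG and 18.8% held ACAAAG. The start region of Prx, at chr1:91914171-91914470 on the + strand, held a single GTGGGNG match on the reverse strand, which begins 119 bases before the start.
Prx: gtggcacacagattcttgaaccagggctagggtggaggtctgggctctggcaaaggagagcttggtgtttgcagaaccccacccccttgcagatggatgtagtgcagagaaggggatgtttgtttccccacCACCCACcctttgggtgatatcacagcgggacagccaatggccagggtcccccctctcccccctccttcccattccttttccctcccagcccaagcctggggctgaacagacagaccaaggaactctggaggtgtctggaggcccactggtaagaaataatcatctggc

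Drp2 encodes dystrophin-related protein 2, the dystrophin family member that binds periaxin in Schwann cells. Its level was 2126, 1878 and 1967 CPM in the conduit libraries, and 295, 272 and 354 CPM in the untreated libraries. Both groups were narrow and lay far apart. The mean was 1990.3 ± 126 CPM in conduit nerves and 307 ± 42.3 CPM in untreated nerves (SD, n = 3 each), a log2 fold change of 2.70 ± 0.16 SE with the smallest adjusted p of the 9 (edgeR, 7.82e-05). The table lists 2 start regions for Drp2, and the counts, made per gene, do not show which start was used. The later one, at chrX:101901036-101901335 on the + strand, held 1 GTGGGNG match and the sequence TATAAA on each strand in overlapping places, a sequence that 14.2% of all start regions held. The earlier one held none of these and is not printed.
Drp2: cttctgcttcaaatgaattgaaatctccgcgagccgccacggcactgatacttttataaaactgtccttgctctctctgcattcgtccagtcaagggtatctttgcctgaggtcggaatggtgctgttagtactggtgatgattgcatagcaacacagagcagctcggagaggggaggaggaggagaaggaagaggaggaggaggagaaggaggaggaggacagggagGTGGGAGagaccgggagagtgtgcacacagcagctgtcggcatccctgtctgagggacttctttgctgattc

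Dag1 encodes dystroglycan, a precursor that is cut into an outer laminin-binding part and a part that spans the membrane. It was at 2204, 2411 and 2046 CPM in the conduit libraries and at 844, 1058 and 911 CPM in the untreated libraries. Dag1 thus had the narrowest gap between the groups as a fold, at 2220.4 ± 183 CPM in conduit nerves and 938 ± 109.6 CPM in untreated nerves (SD, n = 3 each). Its log2 fold change was 1.24 ± 0.16 SE (edgeR adjusted p = 0.000652), and 12.9% of all genes tested had a higher one. With library totals as the scaling it was 0.85.

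Dmd encodes dystrophin, which Schwann cells make mainly as a short form from an internal promoter, and Utrn encodes utrophin, its autosomal relative. Dmd stood at 303, 335 and 256 CPM in the conduit libraries and at 49.2, 84.3 and 60.01 CPM in the untreated libraries. Its log2 fold change was 2.21 ± 0.23 SE (edgeR adjusted p = 0.000291). Utrn was at 382, 355 and 473 CPM in the conduit libraries and at 92.3, 154 and 130.3 CPM in the untreated libraries, with a log2 fold change of 1.69 ± 0.22 SE (edgeR adjusted p = 0.000796). Conduit replicate 3 was the highest conduit library for Utrn and the lowest for Dmd. Untreated replicate 2 was the highest untreated library for both, and for Dag1 and Sgcb as well, whereas it was the lowest untreated library for Prx, Drp2, Mag and Cadm4. Dystrophin is abundant in skeletal muscle, and untreated replicate 1, the library with the muscle transcripts, had the lowest untreated level of both Dmd and Utrn. Without it the log2 fold change was 2.04 for Dmd and 1.50 for Utrn. The table lists 3 start regions for Dmd, and because the counts were made per gene, the full-length and short forms of dystrophin cannot be told apart.

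Sgcb and Sgce encode β- and ε-sarcoglycan, membrane partners that strengthen the dystroglycan complex. Sgcb was at 212, 219 and 190.3 CPM in the conduit libraries and at 71.7, 78.1 and 62.4 CPM in the untreated libraries. Sgce was at 94.9, 108 and 92.9 CPM in the conduit libraries and at 31.8, 34.9 and 41.3 CPM in the untreated libraries. Both were close within each group and apart between groups. The log2 fold change was 1.55 ± 0.14 SE for Sgcb (edgeR adjusted p = 0.000167). It was 1.45 ± 0.14 SE for Sgce (edgeR adjusted p = 0.000215).

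On the axon-facing side, Mag encodes myelin-associated glycoprotein, a sialic acid-binding receptor for axonal gangliosides. Mag was at 327, 357 and 286 CPM in the conduit libraries and at 33.3, 8.80 and 39.6 CPM in the untreated libraries. Untreated replicate 2, with 436 counts, was far below the other untreated libraries, and the untreated group spanned 4.50-fold, the widest spread of the 9. The mean was 323 ± 35.4 CPM in conduit nerves and 27.3 ± 16.3 CPM in untreated nerves (SD, n = 3 each), and the log2 fold change was 3.57 ± 0.52 SE (edgeR adjusted p = 0.00128), or 3.15 without untreated replicate 2. In RefSeq 2 noncoding genes overlap Mag. They had 3 and 401 counts in all 6 libraries together, beside 39148 counts of Mag. The start region of Mag, at chr1:95290995-95291294 on the - strand, held 1 match of GTGGGNG on its own strand and 1 of ACAAAG on the reverse strand.
Mag: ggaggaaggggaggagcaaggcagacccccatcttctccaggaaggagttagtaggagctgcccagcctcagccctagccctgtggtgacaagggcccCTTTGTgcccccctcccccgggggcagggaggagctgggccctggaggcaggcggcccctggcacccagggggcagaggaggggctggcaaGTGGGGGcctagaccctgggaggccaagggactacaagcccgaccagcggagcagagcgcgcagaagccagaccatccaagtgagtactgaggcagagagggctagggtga

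Cadm4 encodes a nectin-like adhesion molecule of the Schwann cell surface that binds CADM3 and CADM2 on the axon. It was at 2185, 2235 and 1677 CPM in the conduit libraries and at 586, 490.2 and 765 CPM in the untreated libraries. Conduit replicate 3 was the lowest conduit library and untreated replicate 3 the highest untreated library, and the groups stayed apart. The mean was 2032 ± 309 CPM in conduit nerves and 613 ± 139 CPM in untreated nerves (SD, n = 3 each), and the log2 fold change was 1.73 ± 0.22 SE (edgeR adjusted p = 0.000645). Its start region, at chr1:89202839-89203138 on the + strand, was 76.0% G and C with 37 CG dinucleotides, against 57.7% and 1 CG dinucleotide in that of Prx and medians of 51.7% and 7 over all start regions. It held 5 GTGGGNG matches and no ACAAAG.
Cadm4: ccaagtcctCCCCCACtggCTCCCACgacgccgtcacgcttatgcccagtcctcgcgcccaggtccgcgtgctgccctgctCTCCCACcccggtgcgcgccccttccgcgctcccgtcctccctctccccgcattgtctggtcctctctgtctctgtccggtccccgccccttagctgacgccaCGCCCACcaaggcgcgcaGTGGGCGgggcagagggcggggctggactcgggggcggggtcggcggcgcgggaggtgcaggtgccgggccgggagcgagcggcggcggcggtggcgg

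Among the start regions not printed, those of Utrn and of Sgce held GTGGGNG, and so did 2 overlapping ones of Dmd, which also held ACAAAG. That of Sgcb held none of either. The longer EGR motif GCGNGGGCG, which contains GTGGGNG where its N is T, was found in the start regions of Sgce and Sgcb and in 4.98% of all start regions. Prx, Cadm4, Mag and Utrn lie on chromosome 1, and Drp2 and Dmd on chromosome X. A match of letters is a description of the sequence and not a binding site, and these start regions have no binding data here.

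Because CPM grows with gene length, the levels of different genes were compared on the deposited FPKM values, which divide by 1 length per gene and by the library total. In conduit nerves the highest FPKM was that of Prx (914 ± 22.7), followed by Cadm4 (825 ± 103), Dag1 (342 ± 18.5), Drp2 (189 ± 13.7) and Mag (105 ± 8.39). Below them came Sgcb (47.3 ± 2.07), Sgce (46.7 ± 2.80), Dmd (18.4 ± 1.90) and Utrn (16.5 ± 3.05; SD, n = 3 throughout). The libraries of Sgcb and Sgce overlapped, as did those of Dmd and Utrn, and every other neighbour in this order was apart. In untreated nerves Prx lay at 89.4 ± 36.3 FPKM, below Cadm4 at 326 ± 69.05 and Dag1 at 189.7 ± 28.2 FPKM. Mag lay at 11.4 ± 6.69 FPKM there, and its libraries overlapped those of Utrn. Prx made up 35.2 to 38.2% of the summed FPKM of the 9 genes in conduit libraries and 9.41 to 15.7% in untreated libraries.

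**Figure D2:**
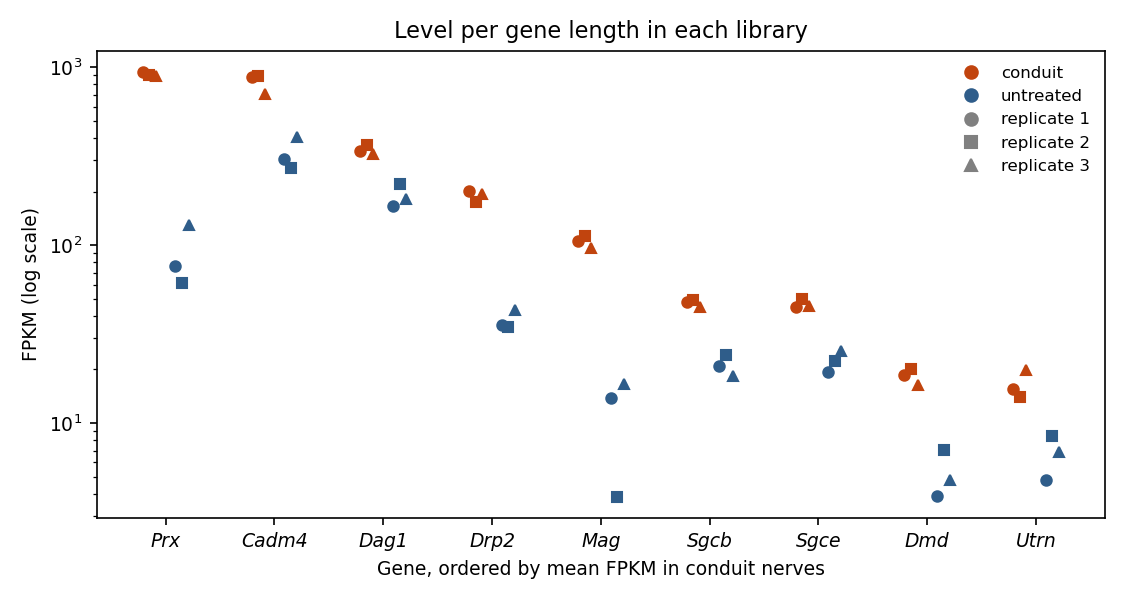
FPKM of the 9 genes (y axis, log scale) in each library, with conduit libraries to the left of untreated libraries and symbols for replicates, ordered by the mean in conduit nerves. Prx leads in conduit nerves at 896 to 939.6 FPKM but lies below Cadm4 and Dag1 in untreated nerves, at 61.4 to 130.5 FPKM.

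Drp2, Dmd and Utrn share one place in the complex, between dystroglycan and the cytoskeleton, so their shares of the summed FPKM of the 3 genes were set side by side. FPKM divides by 1 length per gene, which was 9217 bases for Drp2, 14138 for Dmd and 21492 for Utrn. The shares depend on these lengths, and that of Dmd would be too low for a short form of dystrophin. Drp2 held 85.5, 83.5 and 84.2% in the conduit libraries and 80.5, 69.2 and 78.8% in the untreated libraries. Utrn held 6.59, 6.77 and 8.68% in the conduit libraries and 10.8, 16.8 and 12.5% in the untreated libraries. For both genes the groups did not overlap. The differences of the means were 8.22 percentage points for Drp2 and -6.00 for Utrn, conduit minus untreated, each with an exact two-sided permutation p of 0.1, the smallest that 3 against 3 libraries allow, and 0.15 adjusted over the 3 genes. Dmd held 7.14 to 9.70% in conduit libraries and 8.72 to 14.0% in untreated libraries, which overlapped (exact permutation p = 0.4). Untreated replicate 2 had the lowest Drp2 share and the highest Dmd and Utrn shares. Without it the difference was 4.74 percentage points for Drp2, -0.46 for Dmd and -4.28 for Utrn. From all libraries, shares of summed CPM, not divided by length, differed by 11.9 percentage points for Drp2, -1.84 for Dmd and -10.1 for Utrn.

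**Figure D3:**
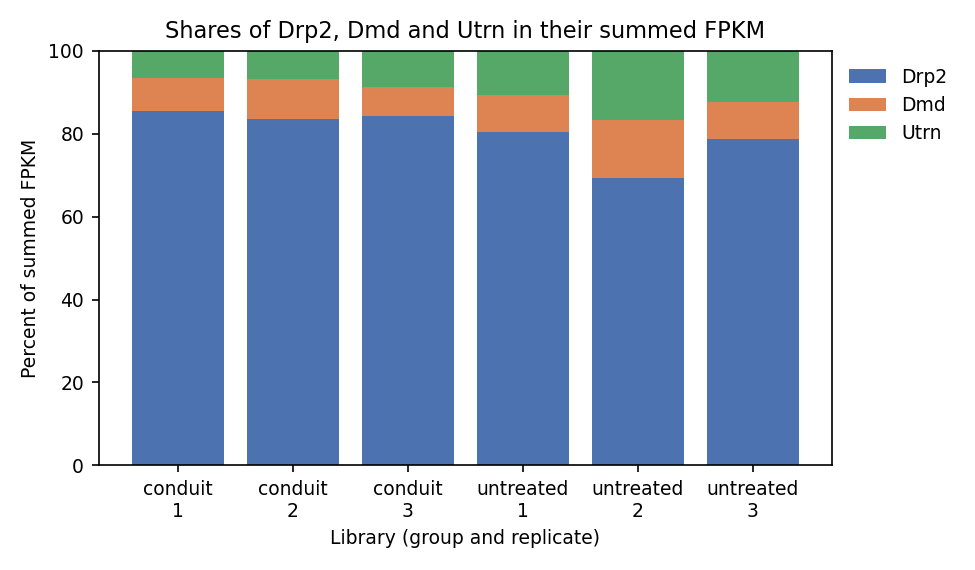
Shares of Drp2, Dmd and Utrn in their summed FPKM (stacked bars, percent, from 0) in each of the 3 conduit and 3 untreated libraries. Drp2 takes 83.5 to 85.5% in conduit libraries and 69.2 to 80.5% in untreated libraries.

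Whether the 9 genes moved by the same amount as the compact myelin genes was asked from the log2 ratio of each to the summed FPKM of those 6 genes. Mag and Prx were higher relative to compact myelin in conduit nerves, by 0.48 and 0.47 on the log2 scale. The other 7 were lower relative to it, by -0.64 for Drp2, -1.11 for Dmd, -1.61 for Cadm4, -1.64 for Utrn, -1.79 for Sgcb, -1.89 for Sgce and -2.10 for Dag1. For each of the 9 the groups did not overlap, and the exact two-sided permutation p was 0.1, the smallest possible, also after adjustment over the 9. These values do not pass 0.05 and the design cannot reach it. Untreated replicate 2, whose summed compact myelin genes were the lowest at 11008 CPM, had the highest ratio of the untreated libraries in 8 of the genes and the lowest for Mag. Without it the difference was 0.17 for Mag, -0.35 for Drp2 and -0.53 for Dmd, and 0.58 for Prx.

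Relative to the geometric mean FPKM of Sox10, S100b and Erbb3, genes expressed throughout the Schwann cell lineage, Mag and Prx were higher in conduit nerves by 2.51 and 2.49 on the log2 scale, Drp2 by 1.38, Dmd by 0.91 and Cadm4 by 0.42. In these 5 the groups did not overlap (exact permutation p = 0.1, adjusted 0.18). Utrn (0.38), Sgcb (0.23), Sgce (0.13) and Dag1 (-0.08) had overlapping groups, with exact permutation p of 0.4, 0.2, 0.5 and 0.6. The 3 lineage genes differed among themselves, with log2 fold changes of 2.25 for S100b, 1.26 for Sox10 and 0.49 for Erbb3. Against S100b alone every value was lower by the same amount. Mag was then at 1.60, Prx at 1.58, Drp2 at 0.47, Dmd at 0.0039 and Dag1 at -0.99, and Cadm4 (-0.49), Utrn (-0.53), Sgcb (-0.68) and Sgce (-0.77) had the opposite direction.

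**Figure D4:**
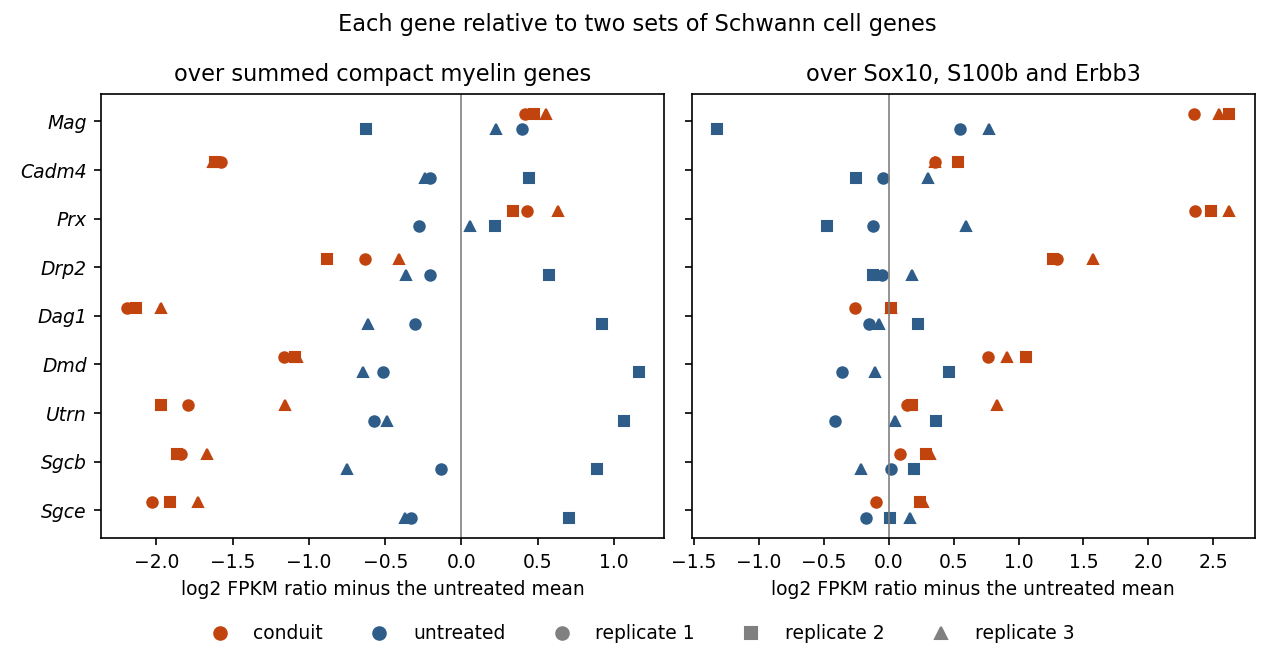
Log2 FPKM ratio of each gene to the summed compact myelin genes (left) and to the geometric mean of Sox10, S100b and Erbb3 (right), each minus its untreated mean (x axis), with conduit libraries drawn above untreated libraries and symbols for replicates. On the left Mag and Prx lie above 0 and the other 7 below it in conduit nerves; on the right the conduit means of Mag and Prx lie at 2.51 and 2.49 and that of Dag1 at -0.08.

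Utrn, Dag1 and the sarcoglycans are also made by other cells of the nerve, so markers of those cells were read in the same libraries. Their calls stand beside 24% higher and 26.2% lower over all genes tested. Of 8 endothelial markers 1 was called higher and 2 lower, with sums of 809 to 971 CPM in conduit libraries and 913 to 1241 CPM in untreated libraries. Of 7 smooth muscle and pericyte markers 0 were higher and 1 lower, with sums of 1144 to 1535 CPM in conduit libraries and 1450.2 to 2264 CPM in untreated libraries. The lower one was Des, also a gene of skeletal muscle, which was highest in untreated replicate 1. Of 5 perineurial markers 4 were higher and Lypd2 had no count in any library, with sums of 2025 to 2444 CPM in conduit libraries and 333 to 532 CPM in untreated libraries. One of them, Itgb4, is also a Schwann cell gene and was the most abundant of the 5 in both groups. All 8 macrophage markers were lower, with sums of 393 to 681 CPM in conduit libraries and 2734 to 3328 CPM in untreated libraries. Of 6 T cell markers 5 were lower, with sums of 38.3 to 72.8 CPM in conduit libraries and 179.8 to 267 CPM in untreated libraries. Of 7 fibroblast markers 2 were higher and 1 lower, with sums of 18448 to 37607 CPM in conduit libraries and 10086 to 21343 CPM in untreated libraries. Of 6 adipocyte markers 2 were higher, with 1516 CPM in conduit replicate 3 as the highest sum of the 6 libraries. The part of these cells in the 9 genes was not tested.

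The wider lists of the complex held 70 genes in the table, of which 68 were tested, and 40 were called higher and 9 lower in conduit nerves. Over all genes tested, 24% were called higher and 26.2% lower. Other proteins of the dystrophin complex moved both ways, with 6 of 11 higher and 2 lower and a median log2 fold change of 0.45. Sgcd, δ-sarcoglycan, was at 96.4 ± 8.48 CPM in conduit nerves and 18.4 ± 3.38 CPM in untreated nerves (SD, n = 3 each; log2 fold change 2.39 ± 0.17 SE, edgeR adjusted p = 9.99e-05). Sntb1, the adaptor β1-syntrophin, was at 38.8 ± 3.03 and 5.70 ± 1.30 CPM in conduit and untreated nerves (2.77 ± 0.20 SE, edgeR adjusted p = 0.000103), and Sspn, sarcospan, at 71.8 ± 8.56 and 16.3 ± 4.67 CPM (2.14 ± 0.22 SE, edgeR adjusted p = 0.000276). Also higher were Dtna, α-dystrobrevin (2.15), and Sntb2 (0.45), whose call was lost with library totals alone and without untreated replicate 1 or 2 or conduit replicate 3 (edgeR adjusted p = 0.0534 to 0.7003). The call of Sntb2 was also lost with each limma fit on log2 FPKM (limma adjusted p = 0.751 to 0.799). Dtnb, β-dystrobrevin, was lower (-1.20 ± 0.21 SE, edgeR adjusted p = 0.00314). Sgca, α-sarcoglycan, known mainly from striated muscle, was at 3.82, 3.53 and 7.31 CPM in the conduit libraries and 35.0, 13.3 and 10.3 CPM in the untreated libraries, the highest being the library with the muscle transcripts. Its log2 fold change was -2.00 ± 0.52 SE (edgeR adjusted p = 0.0150), and -1.27 without untreated replicate 1. With conduit replicate 1 or 2 left out it did not pass the test (edgeR adjusted p = 0.0535 and 0.0558). Sntg1 and Sntg2 were not called, at -0.39 and -1.18, and Sgcz had no counts.

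Of the laminins and other dystroglycan ligands, 7 of 9 tested were higher and 0 lower, with a median log2 fold change of 1.25. With library totals alone 5 were called higher, while the number over all genes tested went from 3711 to 2291. Lama5 (0.67) and Lamc1 (0.84) then lost their call (edgeR adjusted p = 0.136 and 0.0958). Both also lost it with each limma fit on log2 FPKM (limma adjusted p = 0.0824 to 0.168). Lama2, the laminin chain of the Schwann cell basal lamina whose loss causes a muscular dystrophy with neuropathy, was at 307, 465 and 408 CPM in the conduit libraries and 67.9, 77.9 and 117 CPM in the untreated libraries. Its groups were well apart, at 2.17 ± 0.26 SE (edgeR adjusted p = 0.000513). Lamb1 (1.60 ± 0.20 SE, edgeR adjusted p = 0.000627) and Egflam, pikachurin (1.36 ± 0.21 SE, 0.00173), followed by adjusted p. Lama4 (0.49, edgeR adjusted p = 0.0704) and Agrn (0.42, edgeR adjusted p = 0.0983) were not called. Without untreated replicate 3 both were called higher (edgeR adjusted p = 0.0355 and 0.0214), and Lama4 was also called with DESeq2 and with the replicate number as a block (adjusted p = 0.0270 and 0.0288). Among 7 other laminin receptors, Itgb4 (2.82 ± 0.26 SE), Itga6 (2.33 ± 0.14 SE), which together form the α6β4 integrin, and Adgrg6, an adhesion receptor needed for myelination (1.71 ± 0.13 SE), were higher with edgeR adjusted p of 0.000184, 7.82e-05 and 0.000125. Bcam was higher too (0.64), and its call was lost with library totals alone and without conduit replicate 2 or 3 or untreated replicate 1 or 2 (edgeR adjusted p = 0.0536 to 0.267). It was also lost with each limma fit (limma adjusted p = 0.209 to 0.284). Itgb1, Itga7 and Itga3 were not called, at -0.16, -0.25 and 0.31. With library totals alone and with each limma fit, Itgb1 and Itga7 were called lower.

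Enzymes that build the laminin-binding sugar of dystroglycan were tested in 18 genes, of which 11 were higher and 2 lower, with a median of 0.47. The count of higher ones was 5 with library totals alone, 6 with each limma fit on log2 FPKM and 7 without conduit replicate 2. Over all genes tested, 24% were called higher and 26.2% lower in the main fit. The number of all genes called higher also fell, from 3711 to 2291 with library totals alone and to 2034 to 2254 with the limma fits. Gmppb (-0.61) and Dpm2 (-0.72), which supply mannose donors, were lower (edgeR adjusted p = 0.00671 and 0.00574). Of 2 proteases that can cut dystroglycan, Mmp9 was lower (-6.11 ± 0.61 SE, edgeR adjusted p = 0.00026), at 0.135 ± 0.0663 CPM in conduit nerves and 9.56 ± 4.86 CPM in untreated nerves, and Mmp2 was not called (-0.23, edgeR adjusted p = 0.614). Among 6 linkers of the outer membrane to actin or intermediate filaments, Nherf1 (0.76) and Plec (0.52) were higher and Ezr (-0.81) and Msn (-1.02) lower. The call of Plec was lost with library totals alone and without conduit replicate 2 (edgeR adjusted p = 0.376 and 0.0583). It was also lost with each limma fit (limma adjusted p = 0.199 to 0.295). The call of Msn, a linker also abundant in leukocytes, was lost without any of the conduit replicates or untreated replicate 2 and with the replicate number as a block (edgeR adjusted p = 0.0612 to 0.135). Unfiltered limma did not call Msn either (limma adjusted p = 0.0517).

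All 5 genes of the Cadm family and its partners were higher, with a median of 0.88. With each limma fit on log2 FPKM 3 were called higher, while the number over all genes went from 3711 to 2034 to 2254. Cadm3, described as the axonal partner of CADM4, was at 1166.6 ± 134 CPM in conduit nerves and 214 ± 80.3 CPM in untreated nerves (SD, n = 3 each; 2.45 ± 0.29 SE, edgeR adjusted p = 0.000511). Cadm2 was at 2.74 ± 0.35 SE (edgeR adjusted p = 0.000687), and Pals2, a scaffold that binds CADM proteins, at 0.88 ± 0.15 SE (edgeR adjusted p = 0.00270). Pard3 was at 0.81, and its call was lost with each limma fit (limma adjusted p = 0.0545 to 0.0953). Cadm1 was at 0.51, and its call was lost with library totals alone and without conduit replicate 1 or 2 or untreated replicate 1 or 3 (edgeR adjusted p = 0.0765 to 0.569). The limma fits did not call Cadm1 either (limma adjusted p = 0.621 to 0.692). Of 8 genes for making or receiving the MAG signal, 3 were higher and 2 lower, where 24% of all genes tested were higher and 26.2% lower. St3gal3, a sialyltransferase (1.60 ± 0.17 SE), Lingo1 (2.13 ± 0.33 SE) and Rtn4r, the Nogo receptor (1.29 ± 0.20 SE), were higher with edgeR adjusted p of 0.000316, 0.00167 and 0.00171. Bulk nerve RNA does not show which cells made the transcripts of Cadm3, Cadm2, Lingo1 or Rtn4r. Rtn4rl1 (-0.84) and Rtn4rl2 (-1.29), relatives of the Nogo receptor, were lower (edgeR adjusted p = 0.00755 and 0.00700). B4galnt1, St3gal2 and Fyn were not called, at 0.71, 0.11 and 0.08. Egr2 and Sox10, the transcription factors known to drive myelin genes, were higher at 1.77 ± 0.19 SE and 1.26 ± 0.13 SE (edgeR adjusted p = 0.000375 and 0.000295).

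**Figure D5:**
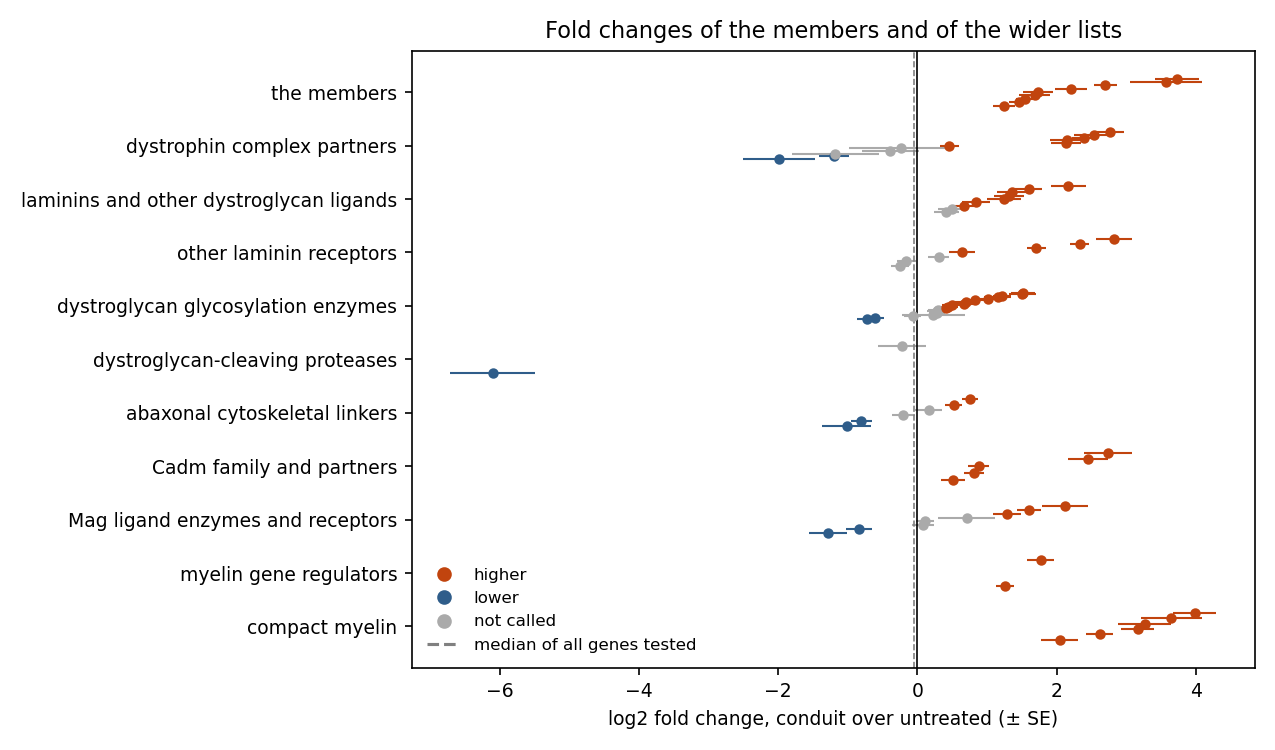
Log2 fold change, conduit over untreated, with its SE (x axis) for each gene tested among the 9 members (top row) and in each wider list, colored by the edgeR call. All points of the top row lie right of 0, between 1.24 and 3.73, while the partner, linker and MAG signal rows hold points on both sides, and the dashed line marks the median of all genes tested at -0.04.

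Outside these lists, the genes most like Prx over the 6 libraries by Pearson correlation of log2 CPM, among 11331 other genes averaging at least 5 CPM, were Sema4g, Slit2, Sec22c, Fn3krp and Tm7sf2, each at r above 0.999. With 2 groups that lie apart, 1529 of those genes had an r above 0.95, so the order is a description of these libraries. Those most like Dmd were Tox, Kbtbd7, Rnf13, Gnaq and Gnai1, and those most like Utrn were Ankrd11, Osbp, Kif3a, Trim3 and FAM120C. For Dmd 1033 and for Utrn 838 of the 11331 genes had an r above 0.95, so the same limit holds for them.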

How the data were processed

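RNA from 3 conduit and 3 untreated sciatic nerve libraries was sequenced by the authors, who deposited 1 table of counts per gene for all libraries and, separately, FPKM for each library. The submitters' processing notes name fastp, HISAT2, HTSeq, DESeq2 and the rat genome build mRatBN7.2, and whether reads were counted by strand is not given in the sources used here. The authors' FPKM values fit 1 length per gene in all 20504 genes checked, and the count table has no rows without a gene name.

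Counts were tested with edgeR 4.0.16 (R 4.3.3) after its filter on low counts, TMM scaling and a quasi-likelihood F test, with Benjamini-Hochberg adjustment over 15464 genes and calls at 0.05. CPM uses the TMM-scaled total of the genes tested, and the SE of a log2 fold change is its size over the square root of F. Ratios and shares used FPKM and exact two-sided permutation tests. The genes followed and the wider lists were chosen with earlier results of these data known. Named beside the 9 genes were up to 3 genes a list with the smallest adjusted p, and further genes that fell outside this rule, named after their values were seen. For some listed genes no values are given. Alternatives were DESeq2 1.42.0, limma 3.58.1 on log2(FPKM + 1) and log2(FPKM + 0.1), other scalings and filters, robust dispersions, a replicate block and leaving out each library. The precision rests on 3 libraries a group.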

Additional observations from a re-analysis of the deposited data

How the results depend on the processing

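All 9 genes kept their direction and their call under each of the 17 alternatives (153 of 153 values), with Dag1 lowest at 0.85 under library totals alone. The number of all genes called higher, 3711, was 2291 with library totals alone, and 2044, 2034 and 2254 with limma on log2(FPKM + 1) filtered, log2(FPKM + 0.1) filtered and log2(FPKM + 1) unfiltered. The number called lower, 4049, was 6554 with library totals alone and 6263 with unfiltered limma. Of 168 values of ratios and shares 162 kept their direction, a count that takes no account of size. Among those 162, the lineage ratio of Dmd went from 0.91 to 0.0039 against S100b alone. Against S100b alone the lineage ratio turned to -0.53 for Utrn, -0.68 for Sgcb, -0.77 for Sgce and -0.49 for Cadm4, and that of Dag1 (-0.08) turned to 0.015 without conduit replicate 1 and 0.035 without untreated replicate 2, in a range of -0.15 to 0.035 over libraries left out. The cause was not tested.

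Replicate numbers are shared by the groups, but the labels do not say that a number marks a shared animal or day, and deviations of same-numbered libraries correlated at 0.18, -0.05 and 0.11. With the replicate number as a block, 9 of the 9 genes were called higher, and 3622 of all genes were called higher and 3892 lower. With 3 libraries a group, the exact tests cannot reach 0.05.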
